A study of Mus musculus with 10 samples.

Results

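The genes described here are the 32 genes of fatty acid oxidation and ketone body metabolism in a fixed list, found by gene name among the 24368 genes of the deposited table, and all 32 were present. They comprised 2 regulators, 4 genes of the carnitine shuttle, 9 of the mitochondrial beta-oxidation spiral, 3 auxiliary mitochondrial enzymes, 3 of electron transfer, 2 of ketone body metabolism, 6 of the peroxisome and 3 targets of the receptor PPAR alpha that lie outside beta-oxidation. The study asked what the RNA-binding protein HuR does in the uptake of dietary fat, and RNA-seq was done on total RNA of mouse proximal jejunum, a stretch of small bowel where much fat is absorbed. The 5 WT libraries came from wild-type littermates, and the 5 cKO libraries came from animals whose intestinal epithelium carries a conditional HuR knockout. HuR, encoded by Elavl1, attaches to U-rich and AU-rich stretches of messenger RNAs. The Cre driver, the deleted exons, and the strain, age, sex, diet and hour of sampling of either group are not stated in the labels.

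Fatty acids enter mitochondria as carnitine esters, made on the outer membrane by CPT1 and taken back to acyl-CoA inside by CPT2. The spiral then removes acetyl units by dehydrogenation, hydration, a further dehydrogenation and thiolysis, and the electrons pass through the electron transfer flavoprotein to the respiratory chain. Peroxisomes shorten very long, branched and dicarboxylic acids by a parallel set of enzymes. Acetyl-CoA can be turned into ketone bodies, and PPAR alpha, a receptor activated by fatty acids, drives many of these genes, in the enterocyte as in the liver.

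Recovered reads came to between 16063987 and 18927440 per library, and values below are read counts divided by the size factor of the library (normalised reads). Elavl1 stood at 631 to 709 in WT and 556 to 725 in cKO (limma adjusted p = 0.798). Which exons were deleted is not stated, so this gene-wide value checks nothing about the knockout, and each direction follows the labels. The tissue label matched its markers. All 13 enterocyte genes were present, with Fabp2 at 255661 to 352939 in WT, and the 5 pancreatic genes in the table were under 10 in all 10 libraries. The libraries cKO 3 and cKO 5 stood apart in clock genes, with Per2 at 12.7 and 16.0 against 342 to 749 in the other 8, and Arntl at 374 and 599.6 against 64.9 to 186. Results are therefore given with and without these 2 libraries. With them left out, 0 of 15 clock genes were called (limma), at a median log2 fold change of -0.16. Per2 was 342 to 526 in cKO 1, 2 and 4, just below the WT range of 529 to 749 (limma adjusted p = 0.151). Of the 15, 2 (Per2 and Per3) had no overlap between WT and cKO 1, 2 and 4, against 8.61% of all genes tested. That count is too small to tell from the share over all genes.

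In WT jejunum the oxidation genes covered a wide range of levels. Per kilobase of gene length, Etfa (alpha subunit of the electron transfer flavoprotein) was highest at 2174 ± 155 normalised reads (SD, n = 5), followed by Hadh (medium and short chain hydroxyacyl-CoA dehydrogenase) at 1808 ± 99.3 and the peroxisomal thiolase gene Acaa1a at 1284 ± 178. Acaa2, Acadl, Hsd17b4, Ehhadh and Cpt2 came next, between 981 and 1210.0 per kilobase, and each differed from the next in this order by less than its own SD over the WT libraries. Cpt1a, which encodes the entry enzyme in its liver isoform, stood much lower at 139.8 ± 18.4 (SD, n = 5). The lowest levels per kilobase belonged to Pdk4 (60.8 ± 13.7), Ppara (41.2 ± 13.1) and Cyp4a10 (7.06 ± 5.45). This order depends on the deposited gene length. For Hadha (8730 bases) and Echs1 (8286) that length equals all exonic bases in GENCODE M21, whereas for Cpt1a it is 4300 against 7642. Hadha ranked 2 by reads alone and 9 per kilobase, and Cpt1a ranked 23 and 26. Spread among the WT mice also differed by gene. The coefficient of variation was 5.49% for Hadh and 5.78% for Ehhadh, against 36.0% for Acaa2, 37.9% for Ppargc1a and 77.2% for Cyp4a10.

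**Figure D1:**
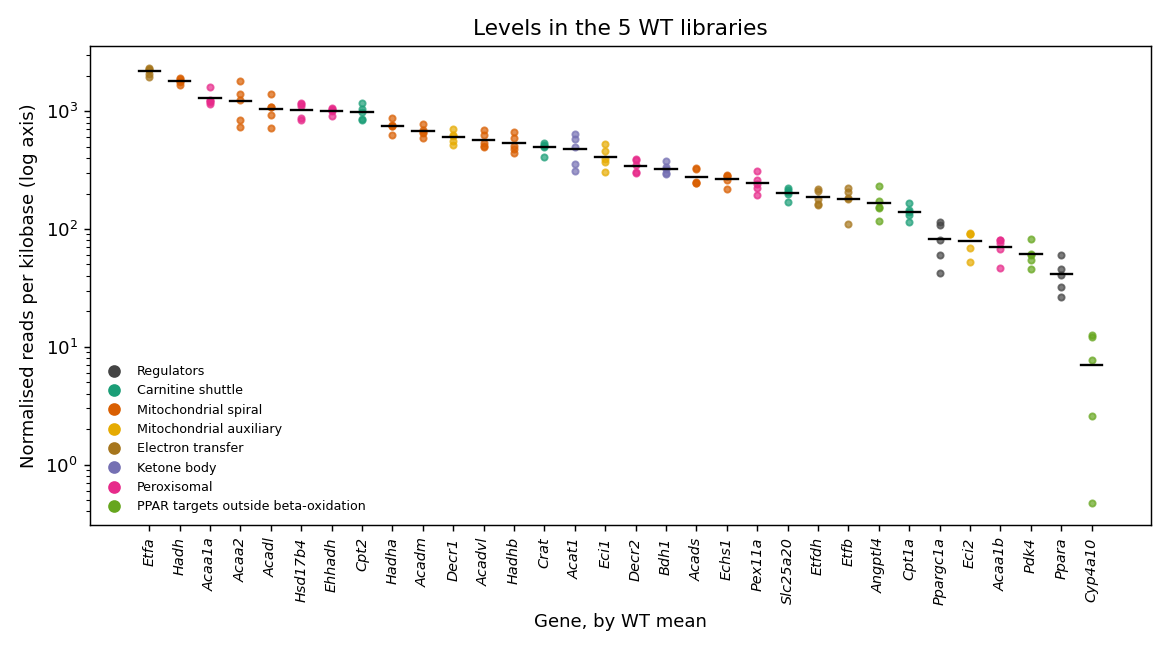
Normalised reads per kilobase of gene length (log axis) of the 32 genes in the 5 WT libraries, ordered by the mean (black bar) and coloured by role. Etfa lies highest at 2174 and Cyp4a10 lowest at 7.06, with points of Cyp4a10 spread widely.

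Between genotypes, none of the 32 genes passed an adjusted p of 0.05 (limma with Benjamini-Hochberg adjustment over the 14062 genes tested), where 1.32% of all genes tested did. The fitted levels of 27 of the 32 were lower in cKO and those of 5 higher, against 49.0% lower over all genes. The median log2 fold change was -0.19, beside 0.010 over all genes tested. An unadjusted limma p under 0.05 was reached by 8 of the 32 (25.0%), against 18.6% of all genes. The WT and cKO values overlapped for each of the 32 genes, where 4.87% of all genes tested had no overlap. Leaving out cKO 3 and cKO 5, 0 of the 32 lacked overlap, against 8.61% of all genes. For 25 of the 32 (78.1%) the 95% interval of the log2 fold change lay within a 2-fold change in either direction, against 69.8% of all genes. Without cKO 3 and cKO 5 the median was -0.048, with 20 of the 32 lower against 48.6% of all genes, and again none passed (0.398% of all genes did). The deposited size factors and edgeR's TMM factors both assume that most genes do not differ. With library totals as the scaling in edgeR instead, 20 of the 32 were lower against 35.8% of all genes. That scaling moved the median of all genes to 0.14, and relative to it the median of the 32 was -0.24. DESeq2 on recovered reads, which called 5.45% of genes, called 2 of the 32, Crat and Acaa2. The edgeR test on recovered reads called 0 of the 32 and 1.11% of all genes.

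**Figure D2:**
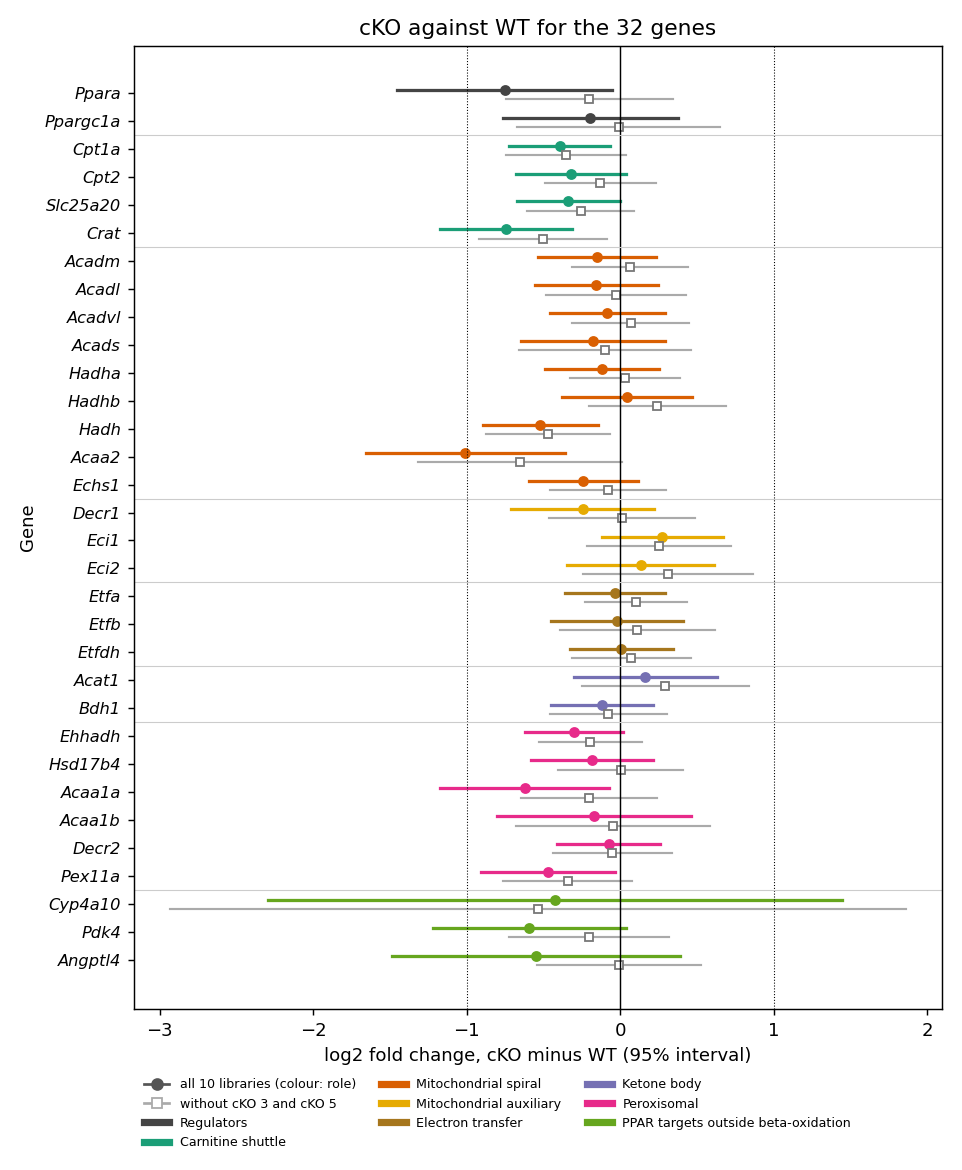
Log2 fold change of each gene, cKO minus WT, with its 95% interval from limma, over all 10 libraries (filled circles, coloured by role) and without cKO 3 and cKO 5 (open squares, grey), with dotted lines at a 2-fold change. Circles run from -1.01 for Acaa2 to 0.28 for Eci1, and for 25 of the 32 genes the squares lie closer to 0.

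Both regulators had lower fitted levels in cKO. Ppara, which encodes PPAR alpha (chromosome 15, 85734983 to 85802819, mm10), stood at 175, 157, 232, 102 and 125 in WT 1, 3, 4, 5 and 6 and at 127, 121, 49.1, 149 and 51.3 in cKO 1 to 5. The values of cKO 3 and cKO 5 lay below every WT value, and those of the other 3 cKO libraries lay within the WT range. Group means were 158 ± 50.1 and 99.6 ± 46.3 (SD, n = 5 each), with a log2 fold change of -0.75 ± 0.33 SE (limma adjusted p = 0.238). Without cKO 3 and cKO 5 it was -0.20 (limma adjusted p = 0.778). Ppargc1a, whose product is a coactivator of mitochondrial genes, ranged from 281 to 759 in WT and from 302 to 671 in cKO, and every cKO value lay inside the WT range (log2 fold change -0.19 ± 0.27 SE, limma adjusted p = 0.734).

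PPAR alpha binds, with its partner RXR, to the half-site AGGTCA in tandem, with any 1 base between the copies. RefSeq promoter windows (GRCm38.p6, 250 bases before the start to 50 after) matched 25 of the 32 genes by symbol. Genes outside this set, Acaa2, Acat1, Angptl4, Crat, Cyp4a10, Decr1 and Hsd17b4, were not analysed in this way. The full tandem was in none of these 25 windows on either strand, and in 0.0481% of all 27025 genes with a window. The half-site alone, which the tandem contains, was in 4 of the 25, against 18.1% of all genes. The clock motifs CACGTG (E-box) and TTATGTAA (D-box), searched because 2 libraries differed in clock genes, were in none of the 25, and in 8.09% and 1.11% of all genes. The 4 half-site matches are shown in the direction of the gene with the match in capitals, where TGACCT is the half-site on the other strand. They begin 94 (Cpt1a), 249 (Acadm), 87 (Acadvl) and 83 (Echs1) bases before the start.
Cpt1a (chr19:3323189-3323230, plus strand): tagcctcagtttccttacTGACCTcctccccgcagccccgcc
Acadm (chr3:153944869-153944893, minus strand): gTGACCTtcgggctccggtgacact
Acadvl (chr11:70015492-70015533, minus strand): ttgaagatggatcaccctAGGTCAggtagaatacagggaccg
Echs1 (chr7:140116481-140116522, minus strand): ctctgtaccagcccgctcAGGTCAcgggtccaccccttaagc
A match is a description of the letters, and no binding was measured here. The log2 fold changes of these 4 genes were -0.39, -0.15, -0.082 and -0.24, within the range of the 21 genes whose windows held no match.

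The 4 genes of the carnitine shuttle all had lower fitted levels in cKO, with a median log2 fold change of -0.37 (-0.31 without cKO 3 and cKO 5), and none passed. Crat, the carnitine acetyltransferase that buffers acetyl-CoA in mitochondria and peroxisomes (chromosome 2, 30400471 to 30415813), had the smallest p of the 4. Its values were 2882, 2738, 2689, 2218 and 2786 in WT and 1387, 1973, 1064, 2400.5 and 1433 in cKO, in the same order of libraries. Of the cKO values, 4 lay below the WT range, and cKO 4 lay inside it. Means were 2663 ± 259 and 1651 ± 531 (SD, n = 5 each), the log2 fold change -0.74 ± 0.20 SE and the limma adjusted p 0.0794. The call depended on single settings, since Crat passed when cKO 4 was left out (log2 fold change -0.89, limma adjusted p = 0.0223) and in DESeq2 (adjusted p = 0.0332). Over all genes, 611 were called without cKO 4 and 750 in DESeq2, against 186 in the main test. Without cKO 3 and cKO 5 the log2 fold change of Crat was -0.50 (limma adjusted p = 0.306). Cpt1a gave -0.39, with 3 cKO values below the WT range of 494 to 711, and it was among the members whose value moved little without cKO 3 and cKO 5 (-0.35). Slc25a20, the carrier that exchanges acylcarnitine for carnitine across the inner membrane, gave -0.34, and Cpt2 -0.32.

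In the mitochondrial spiral, 8 of 9 genes had lower fitted levels in cKO, with a median log2 fold change of -0.15, and none passed. Acaa2, the thiolase of the last step (chromosome 18, 74779197 to 74806207), showed the largest difference of all 32 genes. It stood at 2141, 2745, 1879.8, 1115 and 1285 in WT and 1550.1, 1176, 532, 741 and 667 in cKO. Values of cKO 3, 4 and 5 lay below all WT values, and WT 5 and WT 6 were themselves low beside the other WT libraries. The means of 1833 ± 660.2 and 933 ± 421 (SD, n = 5 each) gave a log2 fold change of -1.01 ± 0.30 SE, a 2.01-fold difference that missed the threshold (limma adjusted p = 0.111; DESeq2 adjusted p = 0.0362). Over the alternatives run the adjusted p of Acaa2 ranged from 0.0362 to 0.415. Without cKO 3 and cKO 5 it was -0.65 (limma adjusted p = 0.415).

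Hadh, which carries out the second dehydrogenation for shorter chains, had tight WT values of 8990.1, 9532, 9376, 8277 and 8828 and cKO values of 4948, 8452, 5150.5, 6544 and 6861. Of the cKO values, 4 lay below the WT range and cKO 2 lay inside it, at a log2 fold change of -0.52 ± 0.18 SE (limma adjusted p = 0.137). This difference changed little without cKO 3 and cKO 5, at -0.47 (limma adjusted p = 0.323), and the lowest value was in cKO 1. The acyl-CoA dehydrogenases, which start each turn on chains of different length, gave values near 0. The log2 fold changes were -0.082 for Acadvl (very long chains), -0.15 for Acadl (long), -0.15 for Acadm (medium) and -0.18 for Acads (short). Their 95% intervals, the widest being -0.65 to 0.29 for Acads, exclude a 2-fold change. Acadm and Acadvl turned to 0.064 and 0.068 without cKO 3 and cKO 5, Acadvl to 0.017 and Acads to 0.0033 with library totals in edgeR. The hydratase gene Echs1 gave -0.24.

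Hadha and Hadhb encode the 2 subunits of the trifunctional protein, which performs the last 3 reactions on long chains. They lie head to head on chromosome 5, and 85 bases separate them in GENCODE M21. Their RefSeq promoter windows overlap by 228 bases. The intervening stretch is shown because it lies between the 2 genes, which run away from it on opposite strands.
Hadha-Hadhb (chr5:30155163-30155247, plus strand): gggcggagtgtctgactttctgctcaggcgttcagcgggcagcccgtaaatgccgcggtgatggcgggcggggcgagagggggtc
Hadha stood at 6489, 7573, 6694, 5525 and 6528 in WT and 6745, 6066, 4329, 7298 and 6029.7 in cKO, a log2 fold change of -0.12 ± 0.17 SE (limma adjusted p = 0.746). Hadhb stood at 3913, 4407, 3148, 2941 and 3324 and 5715, 3333, 2941, 3754 and 2932, at 0.043 ± 0.20 SE (limma adjusted p = 0.929). The ratio of Hadhb to Hadha values was 0.470 to 0.603 in WT and 0.514, 0.549 and 0.486 in cKO 4, 2 and 5, but 0.847 in cKO 1 and 0.679 in cKO 3. The ratio was thus within the WT range in 3 cKO libraries and above it in these 2. Of 50-base windows of Hadhb transcripts, 19.7% also occur in transcripts of other genes, mostly Gm13910, so part of the Hadhb reads may not be unique to it.

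Auxiliary enzymes that act on the double bonds of unsaturated fatty acids and the electron transfer genes showed no common direction. Eci1, an enoyl-CoA isomerase (chromosome 17, 24426683 to 24439316), was the highest of the 32 in fold change. It had 429, 498, 577, 404 and 332 in WT and 397, 661, 472, 550.0 and 633 in cKO, where cKO 2 and cKO 5 lay above the WT range, for a log2 fold change of 0.28 ± 0.19 SE (limma adjusted p = 0.443). Eci2, an isomerase found in peroxisomes as well as mitochondria and counted here with the mitochondrial enzymes, gave 0.13, and Decr1, the mitochondrial dienoyl-CoA reductase, -0.24, the latter turning to 0.013 without cKO 3 and cKO 5. The 3 electron transfer genes differed least. Etfa, at chromosome 9, 55454508 to 55512243, had 4089, 4296, 4154, 3583 and 3828 in WT and 4418, 4024, 3445, 4408 and 3267 in cKO. These cKO values lie on both sides of the WT range, 2 above and 2 below, and the log2 fold change was -0.037 ± 0.15 SE with a 95% interval of -0.36 to 0.29 (limma adjusted p = 0.922). Etfdh, the oxidoreductase that hands the electrons to ubiquinone, gave 0.0084 with an interval of -0.33 to 0.35, and Etfb, the second flavoprotein subunit, -0.023 with an interval of -0.45 to 0.41. The signs of all 3 changed with the setting, so none has a stable direction here.

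All 6 peroxisomal genes had lower fitted levels in cKO, at a median log2 fold change of -0.24, and none passed. With library totals in edgeR, 4 of the 6 were lower, as Acaa1b and Decr2 turned to 0.044 and 0.049. With Eci2 counted as peroxisomal, 6 of 7 were lower, at a median of -0.18. Acaa1a encodes the peroxisomal thiolase (chromosome 9, 119339676 to 119350299). Its values were 5272, 5510.3, 7046, 5115 and 5402 in WT and 3458, 5848, 2088, 5797 and 2681 in cKO. The libraries cKO 1, 3 and 5 lay below all WT values, with cKO 3 lowest, while cKO 2 and cKO 4 lay within the WT range. Means of 5669 ± 784 and 3974 ± 1756 (SD, n = 5 each) gave a log2 fold change of -0.62 ± 0.26 SE (limma adjusted p = 0.217), and -0.20 without cKO 3 and cKO 5 (limma adjusted p = 0.713). Its near copy Acaa1b stood at 92.0 to 159.8 in WT, at a log2 fold change of -0.17, and 30.5% of the 50-base windows of its transcripts occur in Acaa1a, so counts of the 2 copies are uncertain.

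Pex11a, which acts in peroxisome division and is a PPAR alpha target, gave -0.47 ± 0.20 SE (limma adjusted p = 0.233), with 617 to 988 in WT and 349 to 772 in cKO. Ehhadh, the peroxisomal bifunctional enzyme, varied little in WT (3100.0, 3013, 3054, 3181 and 2723) and had 4 of 5 cKO values below that range (2862, 2704, 1990.3, 2354 and 2389). Its log2 fold change was -0.30 ± 0.15 SE (limma adjusted p = 0.292), and -0.19 without cKO 3 and cKO 5. Hsd17b4, the D-bifunctional protein of branched and very long chains, gave -0.18 (0.0031 without those 2 libraries), and Decr2, the peroxisomal dienoyl-CoA reductase, -0.076.

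The 2 ketone body genes went in opposite directions by small amounts. Bdh1, the dehydrogenase that interconverts acetoacetate and beta-hydroxybutyrate (chromosome 16, 31422280 to 31458901), had 1268, 1311, 1456, 1147 and 1159.7 in WT and 945, 1278, 1024, 1426 and 1213 in cKO. Only cKO 1 and cKO 3 lay below the WT values, and the log2 fold change was -0.12 ± 0.16 SE with a 95% interval of -0.45 to 0.21 (limma adjusted p = 0.718). With library totals in edgeR it was 0.0021. Acat1, the mitochondrial thiolase that makes and splits acetoacetyl-CoA, had 2186, 2389.6, 1852, 1176 and 1343 in WT and 2897, 1739, 1666, 1883 and 1696 in cKO, at 0.16 ± 0.22 SE (limma adjusted p = 0.726). The WT libraries alone spanned a wide range for Acat1, with WT 5 and WT 6 low, and the highest value of all was in cKO 1.

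Among PPAR alpha targets outside beta-oxidation, Pdk4, the kinase that switches off pyruvate dehydrogenase when fat is burned (chromosome 6, 5483351 to 5496309), had 190.2, 215, 211, 161 and 290.2 in WT and 174, 257, 134, 134 and 63.3 in cKO. The lowest value was in cKO 5, cKO 3 and cKO 4 also lay below the WT range, and cKO 1 and cKO 2 lay inside it, with a log2 fold change of -0.59 ± 0.30 SE (limma adjusted p = 0.299) and -0.20 without cKO 3 and cKO 5. Angptl4, a secreted inhibitor of lipoprotein lipase, had 383 to 764 in WT and 641, 351, 108, 651 and 393 in cKO. Its log2 fold change of -0.55 ± 0.43 SE (limma adjusted p = 0.517) went with cKO 3, since it was -0.11 without that library and -0.0066 without cKO 3 and cKO 5. Cyp4a10, a fatty acid omega-hydroxylase, was near the floor of detection, with 25.6, 16.2, 26.3, 0.998 and 5.41 in WT and 44.5, 3.64, 4.76, 1.07 and 13.6 in cKO. Values of 0.998 and 1.07 stand for a single read. Its log2 fold change was -0.42, and its 95% interval of -2.29 to 1.45 excluded neither a large rise nor a large fall. Fat cells also express several of these genes. Their marker Adipoq was at 0 in WT 1, WT 4, cKO 2 and cKO 5, and reached 246 in WT 6 and 224 in cKO 4. The sum of the 6 markers was 43.0 to 1228 in WT and 35.3 to 1476 in cKO, and their part in Pdk4 and Angptl4 was not tested.

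**Figure D3:**
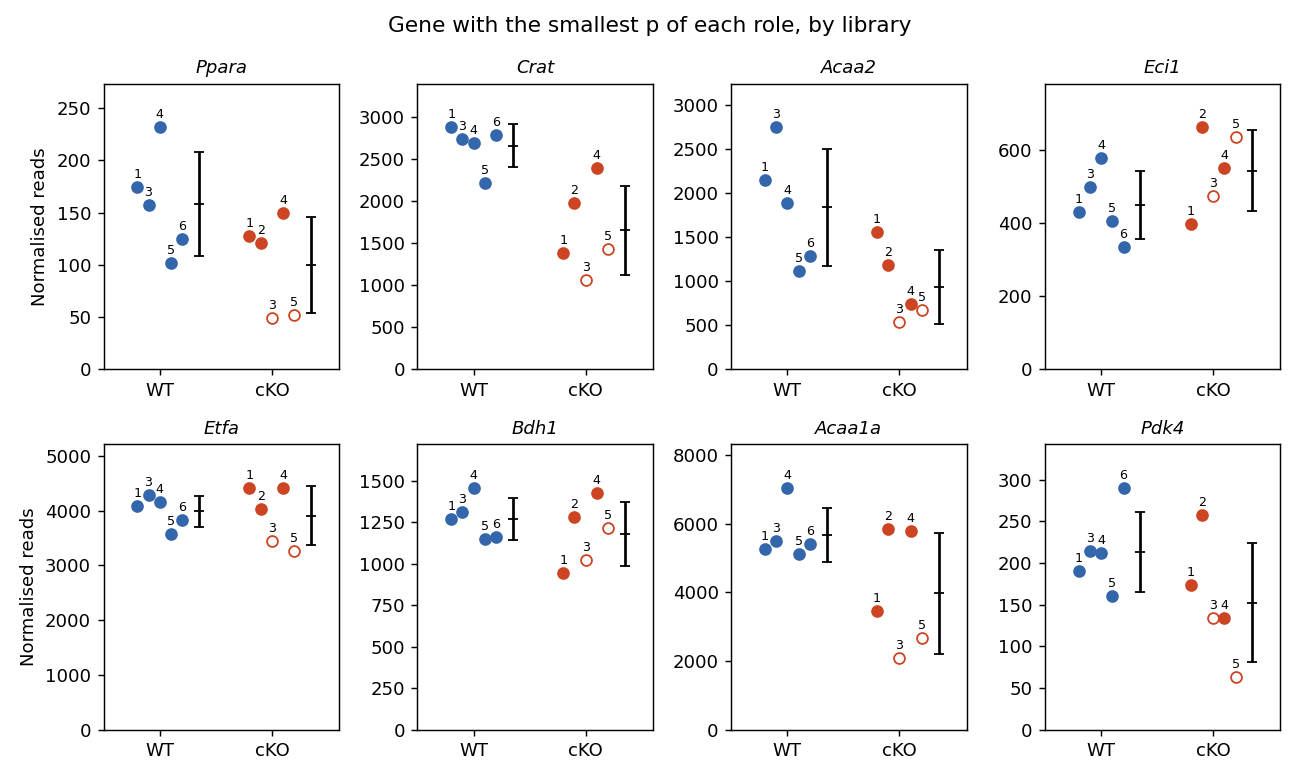
Normalised reads of the gene with the smallest p of each role in the 5 WT (blue) and 5 cKO (red) libraries, labelled by mouse number, with cKO 3 and cKO 5 as open circles and bars giving mean and SD. In every panel the WT and cKO values overlap, and for Ppara only the open circles, 49.1 and 51.3, lie below the WT values.

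By compartment, the median log2 fold change was -0.15 over the 19 mitochondrial genes (15 lower), -0.24 over the 6 peroxisomal genes (6 lower) and 0.022 over the 2 ketone body genes (1 lower), beside 0.010 over all genes. The lists are short and no test of their difference was run. Without cKO 3 and cKO 5 the medians were 0.013, -0.12 and 0.11. Relative to all genes under library totals they were -0.19, -0.28 and -0.032. Seen by library, the peroxisomal median relative to the WT mean was -0.85 in cKO 3, -0.32 in cKO 1 and -0.24 in cKO 5, but 0.12 in cKO 2 and -0.0030 in cKO 4. The WT libraries ran from -0.10 to 0.082. The mitochondrial median was -0.56 in cKO 3 and -0.29 in cKO 5, and the other 3 cKO libraries lay between -0.12 and -0.073, inside the WT range of -0.18 to 0.18. All 5 cKO values of the ketone body median lay inside the WT range.

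**Figure D4:**
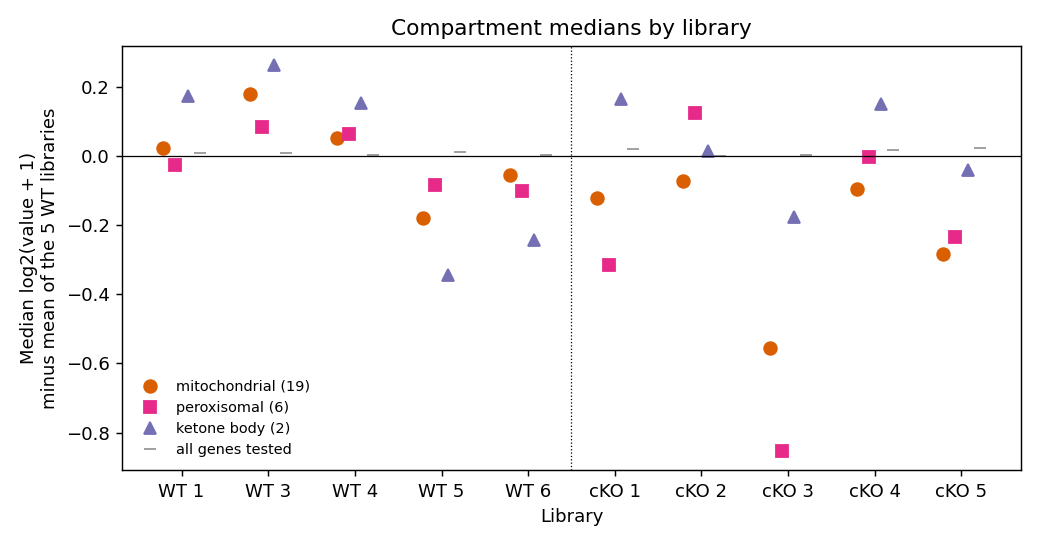
Median over the genes of each compartment of log2(value + 1) minus the mean of the 5 WT libraries, for each library (orange circles, mitochondrial; pink squares, peroxisomal; violet triangles, ketone body; grey bars, all genes tested). The cKO 3 library lies lowest, at -0.56 for mitochondrial and -0.85 for peroxisomal genes, while the medians of all genes stay near 0.

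The individual cKO mice did not share one profile. In cKO 3, 23 of the 32 genes (71.9%) lay below every WT value, against 30.9% of all genes tested. In cKO 5 it was 15 (46.9%, against 23.9%), and 14 genes lay below in both (43.8%, against 16.5%). The other 3 libraries were near the share over all genes, with 10 genes in cKO 1 (31.2%, against 28.9%), 8 in cKO 4 (25.0%, against 19.7%) and 6 in cKO 2 (18.8%, against 20.7%). The lowest of all 10 values was in cKO 3 for 15 of the 32 (46.9%), against 18.0% of all genes tested, and in cKO 3 or cKO 5 for 19 (59.4%), against 26.4%. The library cKO 1 had the highest value for 8 of the 32 (25.0%, against 19.4% of all genes). The same 8 were the only genes of the 32 above every WT value in cKO 1, a share of 25.0% against 29.9% of all genes. They included Decr1 (3633), Eci2 (821), Acat1 (2897) and Hadhb (5715), in the same library that was lowest for Hadh, Acads and Cpt1a. Genes encoded by the mitochondrial genome took 9.48% of the values in cKO 1, against 2.69% to 6.09% in the other 9.

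**Figure D5:**
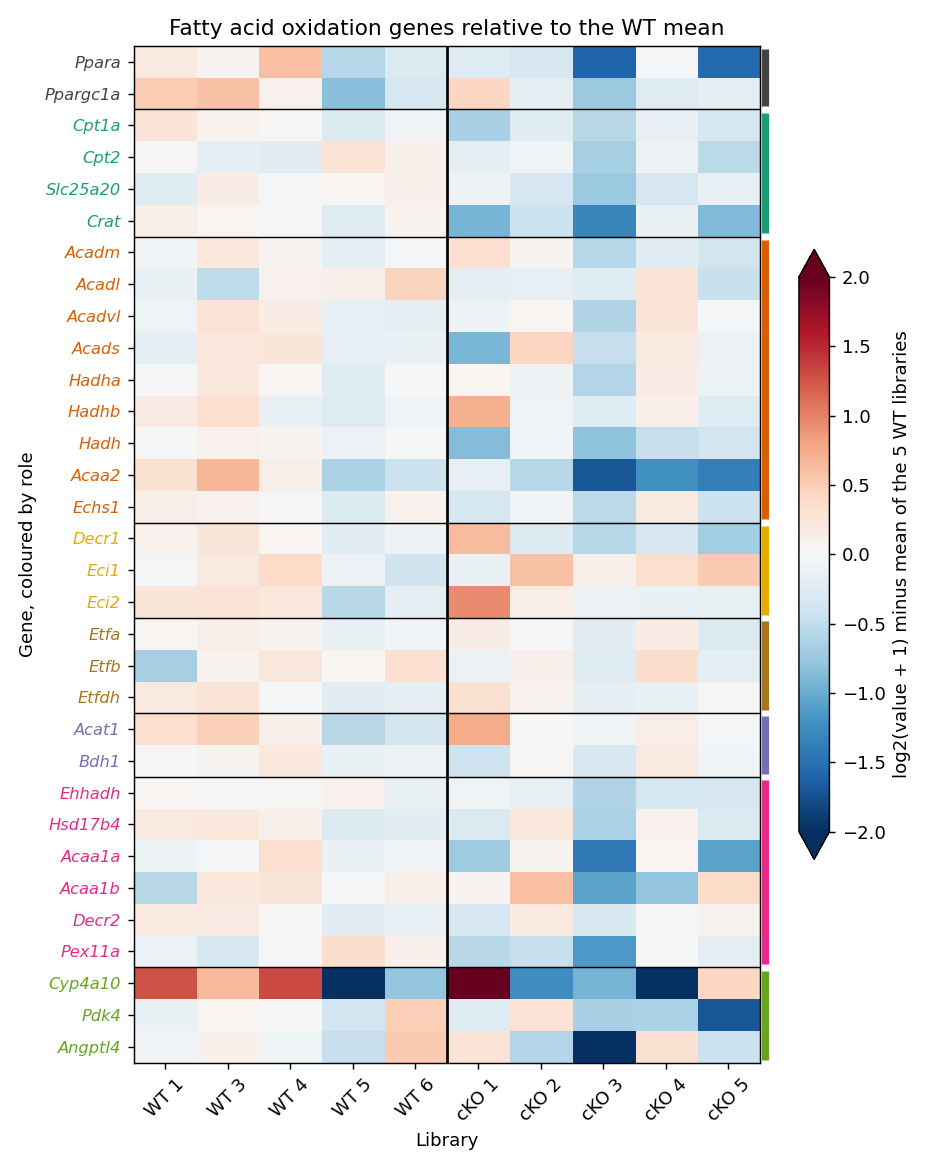
Log2(value + 1) of each gene in each library minus the mean of the 5 WT libraries, with genes grouped and coloured by role and colours limited to a 4-fold difference either way (Cyp4a10 and Angptl4 exceed it in some libraries). The columns of cKO 3 and cKO 5 are mostly blue (31 and 27 of 32 genes below the WT mean), and cKO 1 holds both red (Eci2, Hadhb and Decr1) and blue (Crat, Acads and Hadh) mitochondrial genes.

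Markers of the epithelium differed among the same libraries. Of 13 enterocyte genes, 12 (92.3%) had lower fitted levels in cKO, against 49.0% of all genes tested. None passed in limma or edgeR, against 1.32% and 1.11% of all genes. An unadjusted limma p under 0.05 was reached by 7 (53.8%), against 18.6% of all genes. WT and cKO values did not overlap for 2 (Apoa4 and Slc5a1), against 4.87% of all genes. Without cKO 3 and cKO 5 that count was 4, against 8.61%. Of 23 alternatives, Apoa4 and Slc5a1 were each called in 3, Alpi in 1 and the others in 0. The median log2 fold change was -0.55, and -0.25 without cKO 3 and cKO 5. The summed level of the 13 genes was 1119198 to 1274633 in WT. In cKO it ran from 740566 in cKO 3 and 800281 in cKO 5 up to 1511189 in cKO 1. The sum follows its most abundant genes, and the 13 genes did not move together in cKO 1. There Fabp2 (569523), Sis (278981), Slc2a2 and Dpp4 lay above the WT range, and Apoa1 and Mgam inside it. Alpi, Lct, Vil1, Anpep, Apoa4, Treh and Slc5a1 lay below every WT value in that library. Of 10 proliferation genes, 9 had higher fitted levels and 0 passed (median 0.52; edgeR called 0, and 4 had an unadjusted limma p under 0.05), with sums of 2025 to 2840.1 in WT and 1873 to 4879 in cKO. In these bulk samples fewer cells of a type and less RNA per cell cannot be told apart. The 8 smooth muscle genes had a median of 0.13, the 6 immune genes -0.059, the 5 adipocyte genes tested 0.11 and the 2 skeletal muscle genes tested -0.0059. The 15 clock genes had a median of -0.81, and -0.16 without cKO 3 and cKO 5, and none of these lists held a called gene (limma; edgeR called 0 too). The part of cell composition and of the clock in the oxidation genes was not tested.

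A further 67 genes of the same pathways were listed, of which 64 were in the table and 60 were tested. Of the 60, 2 fell and 0 rose, beside 0.882% and 0.441% of all genes, and their median log2 fold change was -0.090. The first was Slc27a2, a very long chain acyl-CoA synthetase of peroxisomes and the endoplasmic reticulum, which had 1249, 1058, 842, 542 and 766 in WT and 460.3, 451, 281, 488 and 334 in cKO. The groups did not overlap, and it fell 2.17-fold (log2 fold change -1.12 ± 0.22 SE, limma adjusted p = 0.0272). The second was Cd36, a membrane protein for fatty acid uptake and a PPAR target, with 1821, 1891, 1245, 700.3 and 1048 in WT and 749, 700.3, 332, 466 and 288 in cKO. Its values overlapped only between WT 5 and cKO 1, while cKO 2 was just below WT 5. It fell 2.66-fold (log2 fold change -1.41 ± 0.32 SE, limma adjusted p = 0.0466). Of 23 alternatives, Slc27a2 kept its call in 14 and Cd36 in 12. Leaving out any 1 of WT 1, WT 3, WT 4, WT 6, cKO 3 and cKO 5 ended both calls, with limma adjusted p from 0.0525 to 0.0792 for Slc27a2 and from 0.0837 to 0.120 for Cd36. In these settings the log2 fold changes were -1.16 to -0.98 for Slc27a2 and -1.48 to -1.24 for Cd36. Over all genes the same settings called 30 to 111, against 186 in the main test. Both calls were also lost without cKO 3 and cKO 5 together (56 called over all genes), at -0.88 (limma adjusted p = 0.149) and -1.01 (limma adjusted p = 0.200).

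The 20 other peroxisomal genes did not share 1 direction. Fitted levels were lower in cKO for 12 (60%, against 49.0% of all genes) and higher for 8, at a median log2 fold change of -0.18. Among these 20, Acox2, the oxidase of branched chains and bile acid precursors, is named after its values were seen. It had 677, 609, 729.9, 700.3 and 959 in WT and 324, 222, 34.9, 402 and 109.8 in cKO. Every cKO value lay below every WT value, most of all in cKO 3 and cKO 5. The log2 fold change was -2.15 ± 0.59 SE, which did not pass (limma adjusted p = 0.106), whereas without those 2 libraries the smaller difference of -1.24 did (limma adjusted p = 0.0226). It also passed without cKO 3 alone (limma adjusted p = 0.0477), without cKO 4 alone (limma adjusted p = 0.0445), in edgeR with library totals (adjusted p = 0.0356) and in DESeq2 (adjusted p = 0.0329). Over all genes, 65 were called without cKO 3 and 611 without cKO 4, against 186 in the main test. Slc25a17, a peroxisomal carrier of coenzyme A and other cofactors, also named after its values were seen, had higher values in all 5 cKO libraries (147 to 211) than in WT (93.8 to 146), at 0.54 ± 0.18 SE (limma adjusted p = 0.130). These and Slc27a2 were the 3 of the 60 tested pathway genes without overlap, where 4.87% of all genes tested had none. With cKO 3 and cKO 5 left out, 8 of the 60 had no overlap, against 8.61% of all genes.

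The remaining lists held no gene that passed, and the 2 with the smallest p of each are given as values. For other mitochondrial oxidation these were Mlycd, the malonyl-CoA decarboxylase that relieves the block on CPT1, at -0.49 ± 0.19 SE (limma adjusted p = 0.180), and the propionyl-CoA carboxylase gene Pccb at -0.44 ± 0.19 SE (limma adjusted p = 0.225). Among other regulators, the estrogen-related receptor gene Esrra had 2441 to 4273 in WT and 1457 to 2759.9 in cKO, at -0.72 ± 0.21 SE (limma adjusted p = 0.102; DESeq2 adjusted p = 0.0374). It kept -0.74 without cKO 3 and cKO 5 (limma adjusted p = 0.213). The gene Rxrb, for a partner of PPAR alpha, gave -0.62 ± 0.21 SE (limma adjusted p = 0.142). Of other ketone body genes, Bdh2, a cytosolic dehydrogenase, gave -0.53 (limma adjusted p = 0.240) and Oxct1, the transferase of ketone body use, -0.28 (limma adjusted p = 0.370).

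Several values carry a limit of counting. The strand setting is not given, and exons of Acadvl overlap those of Dvl2, on the opposite strand, over 42.9% of their length in GENCODE M21. For Etfb the overlap with Gm45233 and a microRNA gene is 58.2%, and it is on the same strand, whatever that setting was. The WT level of Etfb per kilobase, 181 ± 42.7 (SD, n = 5), was 12.0-fold below that of its partner subunit Etfa. Whether the overlap bears on that level was not tested. Of 50-base windows, 29.8% of Cyp4a10 are shared, mainly with Cyp4a32, and 11.1% of Bdh1 with Gm15743. For 10 of the 32 genes over 5% of windows were shared.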

How the data were processed

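The authors deposited a table of normalised signal. Its steps are those of gene read counts scaled by a single factor in each library. Per the submitters' processing notes, CASAVA, HISAT2 2.0.5, featureCounts 1.5.0-p3 and DESeq2 1.20.0 were used with mm10. Whole reads were recovered by dividing by the smallest step (100% of values whole within 0.001), and edgeR called 156 genes on them. The sources used here do not give the strand setting or the annotation release. Gene length was taken as deposited. Another 2 columns of per-sample values match no label and were not used, nor were the authors' fold changes.

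Values were tested as log2(value + 1) in genes with a mean of 10 or more (14062 of 24368), with genotype alone, in limma 3.58.1 (R 4.3.3; trend, robust), with Benjamini-Hochberg adjustment over all genes tested. edgeR 4.0.16 and DESeq2 1.42.0 on recovered reads were alternatives, beside other scalings, pseudocounts, filters, weights, a replicate block and leaving out each library. Leaving out cKO 3 and cKO 5, and counting Eci2 as peroxisomal, were added after seeing the data. Members and lists were chosen with earlier results of these data known. All members are named, with values by library for the smallest p of each role, along with up to 4 genes past the threshold (or the 2 with the smallest p) of each further list. Steps were tested on simulated data. Litters are not given. Within groups no 2 libraries were near copies. Shared windows and exon overlap used GENCODE M21 (GRCm38), whose coordinates matched the table for 27 of the 32 genes. Promoters are from RefSeq.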

Additional observations from a re-analysis of the deposited data

Results flagged for a closer look

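Among 64 groups of 5 values (32 genes in WT and in cKO) 5 held a value whose gap to the nearest other exceeded 0.71 of the group's range, where chance gives about 1 in 20 groups. Of these, 4 were the cKO 1 library as the highest of its group. They were Decr1 at 3633 normalised reads, Eci2 at 821, Acat1 at 2897 and Cyp4a10 at 44.5. Without cKO 1 the log2 fold changes were -0.46, -0.066, 0.016 and -1.04. The fifth was Acaa1a in WT 4, at 7046.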

How the results depend on the processing

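The count of the 32 genes called was 0 in the main test and moved to 2 in DESeq2 (Crat and Acaa2). With 1 library left out it was 0 to 1, the 1 being Crat without cKO 4. That setting called 611 of all 14062 genes tested, against 186 in the main test. The count of other pathway genes called, 2 in the main test, was 5 in DESeq2, 3 in edgeR with library totals, 1 without a filter on low values, 1 with library weights, 1 without cKO 3 and cKO 5, and 0 both without trend and robust moderation and in the 8 libraries with shared numbers and no replicate block. With 1 library left out it was 0 to 5, with 0 without WT 1, WT 3, WT 4, WT 6 or cKO 5, 1 without cKO 3 and 5 without cKO 4. The count over all genes moved too. It was 30 to 91 without 1 WT library, 65 to 220 without cKO 1, 2, 3 or 5, and 611 without cKO 4. It was 750 in DESeq2, 150 with library totals, 143 without the filter and 242 with library weights. Without trend and robust moderation it was 42, and 89 in the 8 libraries with no block. Without cKO 3 and cKO 5 the medians of all 32 genes (-0.048), of mitochondrial genes (0.013, with the sign turned) and of peroxisomal genes (-0.12) moved by more than the SD between libraries in the less variable group. The peroxisomal median also did so with library totals in edgeR (-0.13) and with totals without mitochondrial and top genes (-0.15). It also moved in the 8 libraries with and without a replicate block (-0.36) and without cKO 2 (-0.35) or cKO 3 (-0.15). With 1 library left out the medians of all 32, mitochondrial, peroxisomal and ketone body genes ran from -0.26 to -0.11, -0.23 to -0.10, -0.35 to -0.15 and -0.064 to 0.088. Signs turned for genes near 0, none of them called: without cKO 3 and cKO 5 Acadm (0.064), Acadvl (0.068), Hadha (0.034), Decr1 (0.013), Etfa (0.10), Etfb (0.11) and Hsd17b4 (0.0031); with library totals in edgeR Acadvl (0.017), Acads (0.0033), Etfa (0.063), Etfb (0.052), Bdh1 (0.0021), Acaa1b (0.044) and Decr2 (0.049); with totals without mitochondrial and top genes Acadvl (0.012), Etfa (0.058), Etfb (0.072) and Decr2 (0.019); with library weights Hadhb (-0.015) and Decr2 (0.018). With 1 library left out, Acadvl (-0.17 without cKO 4 to 0.047 without cKO 3), Acads (-0.33 without cKO 2 to 0.0059 without cKO 1), Hadhb (-0.12 without cKO 1 to 0.13 without WT 3), Eci2 (-0.066 without cKO 1 to 0.20 without cKO 5), Etfa (-0.083 without cKO 1 to 0.026 without cKO 5), Etfb (-0.19 without WT 1 to 0.061 without WT 6), Etfdh (-0.065 without cKO 1 to 0.071 without WT 3), Acaa1b (-0.36 without cKO 2 to 0.056 without cKO 3) and Cyp4a10 (-1.04 without cKO 1 to 0.072 without cKO 4) took both signs. The cause of these changes was not tested.

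Whether numbers shared by 4 WT and 4 cKO mice stand for pairs could not be decided, as litters are not given. The correlation of deviations was 0.118, 0.0218, -0.105 and 0.0957 for numbers 1, 3, 4 and 5. The cKO library of the same number was the best match for number 1 but not for 3, 4 and 5. Over all genes, 134 were called with a replicate block and 89 without it. For Cd36 the limma adjusted p was 0.00636 and 0.0668. With a replicate block in these 8 libraries 0 of the 32 and 2 of the other pathway genes were called, at a median of -0.30 for the 32. The block turned Etfb to 0.030 and Etfdh to -0.055, as did the 8 libraries with no block. Ranking WT levels without division by gene length changed the order. Depth limits Cyp4a10, whose values reach 1 read.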
